A study of Mus musculus with 32 samples.

Results

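Toll-like receptors and the proteins that pair with them were followed in mouse liver as 10 genes, taken by symbol from both raw count tables of the series, out of 41585 gene entries. They are the receptors Tlr1, Tlr2, Tlr4, Tlr7, Tlr8, Tlr9 and Tlr13, the co-receptors Cd14 and Ly96, and the adaptor Myd88. The 32 liver libraries came from C57BL/6J WT mice and from Cyp2b-null mice, which lack Cyp2b9, Cyp2b10 and Cyp2b13 through a CRISPR/Cas9 deletion, and held 4 libraries in each of 8 groups of sex, genotype and diet. Mice were 10 weeks old when they went onto normal chow (ND) or a fat-rich diet made from amino acids without choline (CDAHFD), in which fat was 62% and methionine was cut to 0.1%, and stayed on it for 8 weeks. The WT mice were bought from a supplier and are not stated to be littermates of the Cyp2b-null mice, so that genotype and origin cannot be told apart. The comparisons asked how the diet, the missing Cyp2b enzymes and sex moved each of these genes.

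Toll-like receptors are membrane proteins that recognise microbial molecules and debris from damaged cells. TLR2, which pairs with TLR1 or TLR6 to bind lipoproteins, and TLR4, which binds lipopolysaccharide, sit at the cell surface, whereas TLR7, TLR8, TLR9 and TLR13 read nucleic acids inside endosomes. CD14 hands lipopolysaccharide to TLR4 and its partner MD-2, the product of Ly96, and all of these receptors pass their signal through the adaptor MyD88 towards NF-kB. In liver the receptors are best known from Kupffer cells and recruited monocytes, although hepatocytes, stellate cells and endothelium use some of them as well.

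Library totals ran from 2906411 to 10166959 counts, with overlapping ranges among the 8 groups, and a floor of 3 counts corresponded to 0.295 to 1.03 CPM, from the largest library to the smallest, where CPM is the TMM-normalised count scaled to a common library size. The genotype labels were borne out in females: Cyp2b9 had 683 to 3530 counts in the libraries of WT females and 2 to 8 in those of Cyp2b-null females. In ND-fed males Cyp2b9 was low in WT livers too (0 to 15 counts, against 4 to 18 in Cyp2b-null males), so there it checked nothing, whereas Cyp2b10 had 33 to 97 counts in ND-fed WT males and 1 to 9 in ND-fed Cyp2b-null males. The libraries carried the defining hepatocyte markers Alb, Ttr and Apob throughout. The 10 genes themselves were thinly covered: Myd88 had 29 to 261 counts per library and Cd14 2 to 427, but Tlr9 only 0 to 43. Floors and the intervals of read-count ratios cover counting error only, whereas the 95% intervals derived from edgeR's test also take in the spread between libraries. In whole liver fewer cells of a type and less RNA per cell cannot be told apart.

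On chow, the adaptor and the MD-2 gene stood above the receptors. Per kilobase of exon, on the CPM scale, Myd88 was the highest of the 10 genes in all 4 ND-fed groups (5.47, 5.63, 6.71 and 6.07 CPM per kilobase in WT females, Cyp2b-null females, WT males and Cyp2b-null males), with Ly96 next (4.21, 4.40, 2.62 and 2.91). The libraries of Myd88 and Ly96 overlapped in both groups of females and did not in males. Cd14 came next in each ND-fed group at 0.710 to 2.37 CPM per kilobase, and most neighbours below it overlapped. Tlr9, the endosomal receptor for unmethylated CpG DNA, was the lowest of the 10 in all 8 groups.

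On CDAHFD the order changed at the top. Cd14 was then the highest of the 10 genes in every group, at 12.3 and 14.2 CPM per kilobase in WT and Cyp2b-null females and 13.2 and 18.9 in WT and Cyp2b-null males, ahead of Myd88 at 7.40 to 9.07. Only in WT females did the libraries of these neighbours overlap. Tlr2 ranked above Ly96 in Cyp2b-null females, and Tlr13 and Tlr2 both did in the 2 groups of males, whereas Ly96 stayed above Tlr2 in WT females; Ly96 and Tlr2 overlapped where they were neighbours.

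**Figure D1:**
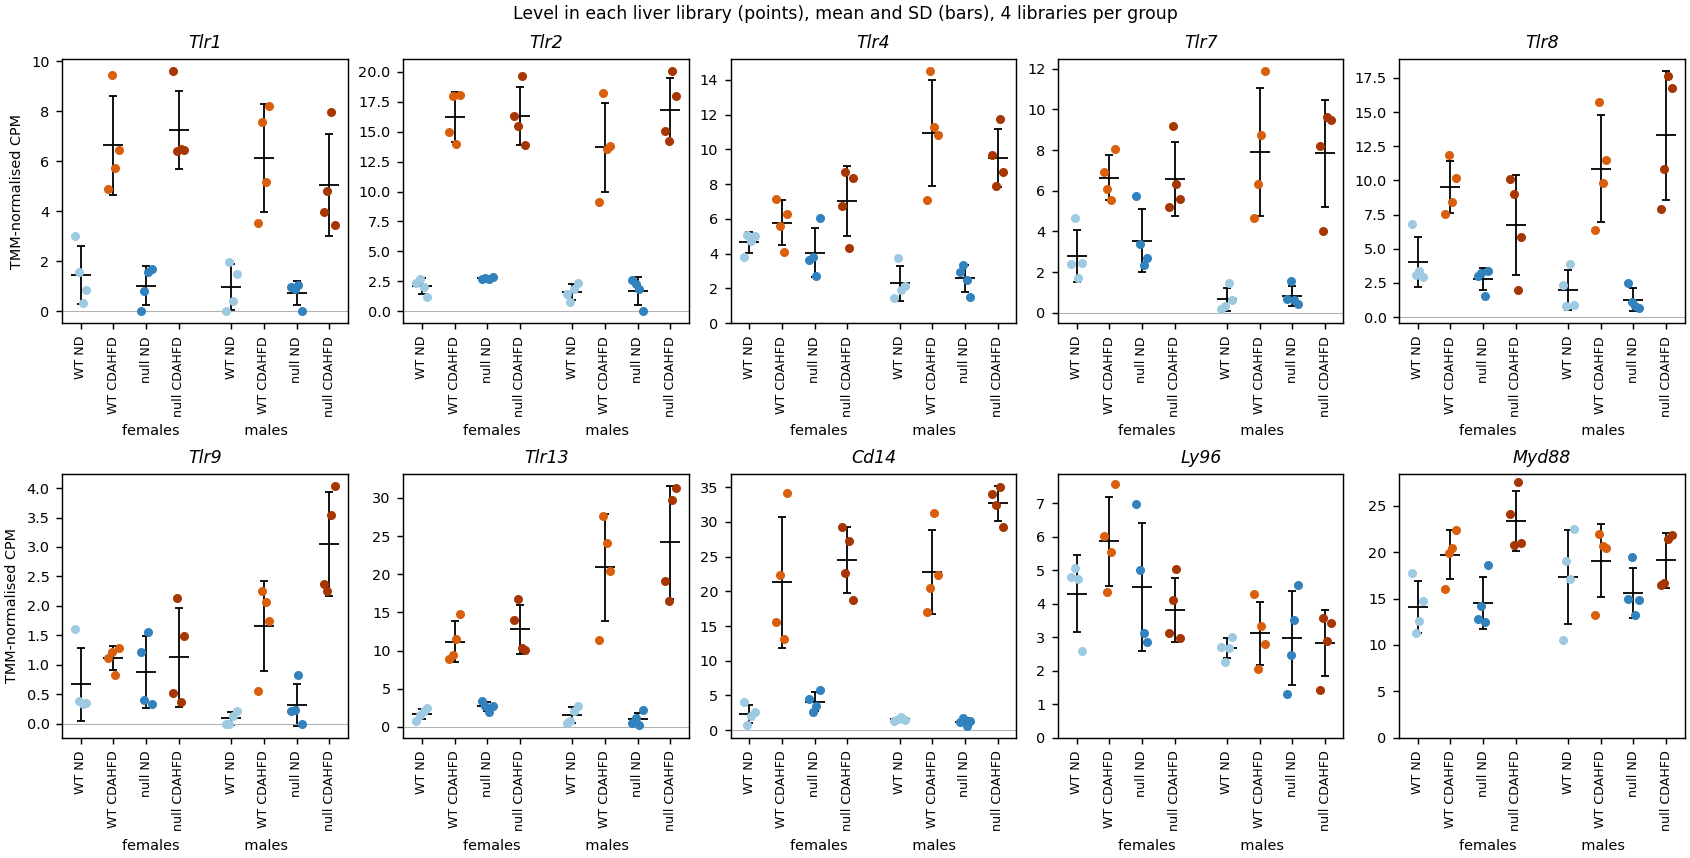
TMM-normalised CPM (y axis) of each of the 10 genes in the 32 liver libraries, grouped on the x axis by sex, genotype and diet; points are libraries, the long dash is the mean and the bars are 1 SD of 4 libraries. Cd14, Tlr1, Tlr2 and Tlr13 separate the diets without overlap in all 4 comparisons, whereas Ly96 overlaps in each.

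The diet raised most of the 10 genes. CDAHFD against ND, 6 of the 9 genes that passed the low-count filter rose in WT females, 8 of 9 in Cyp2b-null females, and 8 of 10 in WT males and in Cyp2b-null males, by edgeR's quasi-likelihood test with Benjamini-Hochberg adjustment over all genes tested; 0 fell. In Cyp2b-null females the count was 5 without ND-fed replicate 2 or 3 or CDAHFD-fed replicate 2. Over all genes tested, the same rule called higher 13.9% and lower 10.2% in WT females, 16.9% and 13.9% in Cyp2b-null females, 18.0% and 15.0% in WT males, and 20.3% and 17.1% in Cyp2b-null males. In females 1 of these genes (Tlr1) and in males 7 (Tlr1, Tlr2, Tlr7, Tlr8, Tlr9, Tlr13 and Cd14) passed the low-count filter only with their CDAHFD-fed libraries. The counts and medians given here, and the adjusted p of these genes for the diet in those sexes, are therefore a description. Without the filter, where all 10 genes were tested, 6, 7, 8 and 8 were called in the same order of groups, and 13.4%, 16.7%, 18.2% and 20.4% of all genes in either direction. The median log2 change of the genes tested was 1.31, 1.17, 2.88 and 3.20 in these 4 comparisons, against medians of -0.00 to 0.03 in females and -0.02 to -0.01 in males over all genes. Tlr1, Tlr2, Tlr7, Tlr8, Tlr13 and Cd14 rose in all 4 comparisons, Tlr4 in 3, Tlr9 in 2, Myd88 in 1 and Ly96 in 0. All 4 CDAHFD-fed libraries lay above all 4 ND-fed ones for 6 of the 10 genes in WT females, 5 in Cyp2b-null females, 8 in WT males and 8 in Cyp2b-null males, where 14.6%, 16.3%, 15.9% and 19.8% of all genes did.

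**Figure D2:**
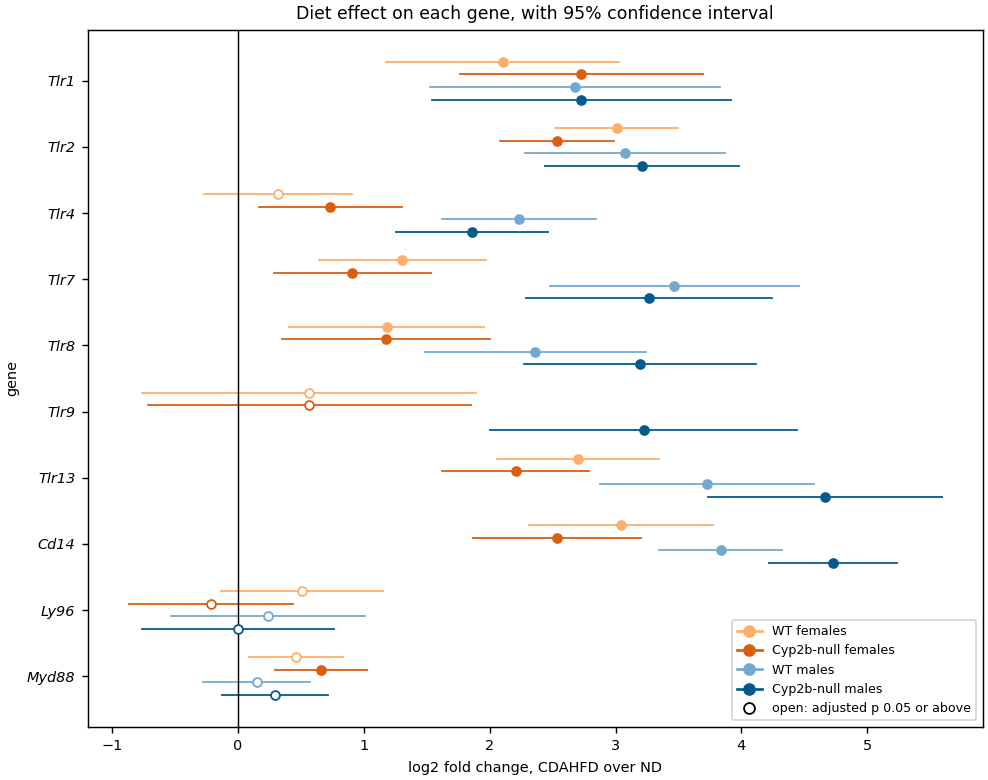
Log2 fold change of CDAHFD over ND (x axis) for each of the 10 genes (y axis) in the 4 groups of sex and genotype, with the 95% confidence interval as a line; filled points passed an adjusted p of 0.05 and open points did not. Tlr4, Tlr7, Tlr8, Tlr13 and Cd14 lie farther right in males than in females, as does Tlr9 in Cyp2b-null mice, and Ly96 straddles 0. A direct test of the sex difference passed only for Tlr4 in WT mice and for Cd14, Tlr13 and Tlr7 in Cyp2b-null mice. Tlr9 in WT males is left out because its ND-fed libraries held 2 reads in all.

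Markers of liver cell types moved with the diet alongside the 10 genes. The summed level of 10 monocyte and recruited macrophage markers went from 112 to 179 CPM in ND-fed females to 712 to 1335 CPM in CDAHFD-fed ones, and from 30.2 to 77.7 CPM to 676 to 1971 CPM in males, and 9 of 9 tested rose in all 4 comparisons; Trem2 was listed at 0 in every library. Resident macrophage markers summed to 442 to 770 CPM on ND and 759 to 1320 CPM on CDAHFD in females, and to 163 to 405 CPM and 456 to 966 CPM in males, with 5 to 7 of 10 rising and 2 or 3 falling. Neutrophil markers summed to 0.724 to 5.07 CPM on ND and 7.47 to 26.5 CPM on CDAHFD without overlap, and Ly6g was at 0 in all groups. At such ND-fed levels the low-count filter favoured genes high on CDAHFD. That 3 of 3 tested rose in all 4 comparisons is therefore a description. In contrast, 7 of 8 hepatocyte markers fell in each of the 4 comparisons. B and plasmacytoid dendritic cell markers, the cells best known for Tlr7 and Tlr9, overlapped between the diets in all 4 groups, at 157 to 199 CPM on ND and 161 to 186 CPM on CDAHFD in WT females, 148 to 179 and 163 to 345 in Cyp2b-null females, 89.6 to 174 and 105 to 140 in WT males, and 112 to 144 and 109 to 165 in Cyp2b-null males, with 0 of 3 tested called in WT and in Cyp2b-null females, 1 of 3 higher in WT males and 2 of 3 higher in Cyp2b-null males. Stellate cell markers summed to 98.6 to 151 CPM on ND and 194 to 278 CPM on CDAHFD in females and to 81.2 to 115 and 194 to 289 CPM in males, with 3, 4, 3 and 6 of 7 rising in WT females, Cyp2b-null females, WT males and Cyp2b-null males and 0 falling. Cholangiocyte markers, which share Spp1 with the recruited macrophage list, summed to 34.6 to 62.0 and 114 to 248 CPM in females and 20.4 to 38.1 and 97.6 to 313 CPM in males, and 2, 3, 2 and 2 of 5 rose. Sinusoidal endothelial markers summed to 258 to 352 and 190 to 258 CPM in females and 165 to 262 and 146 to 301 CPM in males, with 0, 0, 1 and 3 of 7 rising and 2, 4, 1 and 0 falling. Conventional dendritic cell markers summed to 4.73 to 12.9 CPM on ND and 5.84 to 14.2 CPM on CDAHFD, with 0 of 2 tested called in either group of females and 2 of 3 higher in either group of males. T and NK cell markers summed to 2.96 to 7.26 and 2.61 to 15.2 CPM, and the 1 gene tested was called in Cyp2b-null females only. These marker counts stand beside the shares of all genes called for the diet, 13.9% to 20.3% higher and 10.2% to 17.1% lower over the 4 comparisons. Counts such as 1 of 7 lie near those shares. The part of these cell types in the changes of the 10 genes was not tested.

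Among the cell-surface receptors, Tlr2 rose in all 4 comparisons. In WT females its level was 2.40, 2.73, 2.03 and 1.21 CPM in the 4 ND-fed libraries and 14.9, 17.9, 13.9 and 18.0 CPM in the 4 CDAHFD-fed ones, and in Cyp2b-null females 2.73, 2.80, 2.73 and 2.87 against 16.4, 15.5, 19.7 and 13.9 CPM. In WT males it was 1.45, 0.813, 1.89 and 2.36 CPM on ND and 9.14, 18.2, 13.6 and 13.8 CPM on CDAHFD, and in Cyp2b-null males 2.62, 2.24, 1.86 and 0 and 15.0, 14.3, 20.1 and 18.0 CPM. Every CDAHFD-fed library stood several-fold above every ND-fed library of its group, and the ND-fed Cyp2b-null females lay within a very narrow band. The log2 changes were 3.01 ± 0.23 (SE) and 2.53 ± 0.22 in WT and Cyp2b-null females and 3.07 ± 0.38 and 3.21 ± 0.37 in WT and Cyp2b-null males, a 5.78- to 9.27-fold rise, with edgeR's adjusted p between 1.03e-08 and 2.54e-06.

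Tlr1, which codes for a partner of TLR2, also rose in all 4 comparisons. Its libraries ran from 0 to 3 CPM on ND and from 3.43 to 9.60 CPM on CDAHFD over all groups, and within each group the diets did not overlap. The log2 changes were 2.10 ± 0.44 (SE, adjusted p = 0.00133) in WT females, 2.73 ± 0.46 (adjusted p = 0.000155) in Cyp2b-null females, 2.68 ± 0.55 (adjusted p = 0.000752) in WT males and 2.73 ± 0.57 (adjusted p = 0.000708) in Cyp2b-null males. In both sexes Tlr1 passed the low-count filter only with its CDAHFD-fed libraries, so these adjusted p are a description. Tlr1 and its neighbour Tlr6 on chromosome 5 are close paralogues, and how the counting treated reads that fit both is not stated, so the split between them is uncertain.

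Tlr4, the lipopolysaccharide receptor, rose in both groups of males and in Cyp2b-null females. In WT females the ND-fed libraries held 3.80, 5.07, 4.75 and 5.02 CPM and the CDAHFD-fed ones 7.14, 5.58, 4.10 and 6.28 CPM, and in WT males 1.45, 3.74, 1.89 and 2.15 CPM rose to 7.09, 14.5, 11.3 and 10.8 CPM. Cyp2b-null females went from 3.64, 3.81, 2.73 and 6.08 to 6.75, 8.71, 4.33 and 8.33 CPM, and Cyp2b-null males from 2.95, 3.35, 2.48 and 1.53 to 9.65, 7.89, 11.8 and 8.69 CPM. The diets overlapped in both groups of females and in neither group of males. The log2 change was 2.23 ± 0.29 (SE, adjusted p = 5.38e-06) in WT males and 1.86 ± 0.29 (adjusted p = 3.19e-05) in Cyp2b-null males, 4.69- and 3.63-fold, against 0.32 ± 0.28 (adjusted p = 0.459) in WT females and 0.73 ± 0.27 (adjusted p = 0.0466) in Cyp2b-null females. The call in Cyp2b-null females was lost without ND-fed replicate 1, 2 or 3 or CDAHFD-fed replicate 1, 2 or 4 (adjusted p 0.062 to 0.126), with DESeq2 (0.0555), and in 3 other fits.

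Cd14, the carrier of lipopolysaccharide to TLR4, rose in all 4 comparisons. It went from 4.00, 0.779, 2.03 and 2.60 CPM to 15.6, 22.3, 13.1 and 34.2 CPM in WT females and from 4.55, 2.60, 3.51 and 5.74 CPM to 29.3, 22.7, 27.2 and 18.8 CPM in Cyp2b-null females. In WT males 1.27, 1.63, 1.89 and 1.502 CPM on ND stood against 17.0, 20.5, 31.3 and 22.4 CPM on CDAHFD, and in Cyp2b-null males 1.203, 1.79, 0.621 and 1.31 against 34.0, 32.4, 35.1 and 29.3 CPM. The diets were far apart in all 4 groups, and replicate 4 of the CDAHFD-fed WT females stood above the other 3 of its group. The log2 changes were 3.05 ± 0.35 (SE) and 2.53 ± 0.32 in WT and Cyp2b-null females and 3.83 ± 0.24 and 4.73 ± 0.25 in WT and Cyp2b-null males, which is 5.79- to 26.5-fold, with adjusted p from 1.80e-11 to 6.69e-06 by edgeR.

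Ly96, whose product MD-2 completes the lipopolysaccharide receptor beside TLR4, did not follow Cd14. Its libraries held 4.80, 5.07, 4.75 and 2.60 CPM on ND and 6.02, 4.37, 5.53 and 7.57 CPM on CDAHFD in WT females, and 2.72, 2.28, 2.69 and 3.005 against 4.29, 2.05, 3.34 and 2.80 CPM in WT males. Cyp2b-null libraries ran from 2.87 to 6.98 CPM in females and from 1.31 to 4.58 CPM in males over both diets, so the diets overlapped in all 4 groups. The log2 changes of 0.51, -0.22, 0.24 and -0.00 in WT females, Cyp2b-null females, WT males and Cyp2b-null males did not pass the test (adjusted p 0.258 to 1), and their 95% intervals reached from -0.87 to 1.15. WT females passed with library size scaling (adjusted p = 0.0435), under which the median of all genes was 0.317.

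The endosomal receptors among the 10 genes had larger log2 changes in males than in females. In the direct test, given after the single genes, that difference passed only for Tlr7 and Tlr13 in Cyp2b-null mice. Tlr7, a receptor for single-stranded RNA whose gene lies on the X chromosome beside Tlr8, had 0.181, 0.325, 1.48 and 0.644 CPM in ND-fed and 4.67, 6.34, 8.75 and 11.9 CPM in CDAHFD-fed WT males, and 0.656, 1.57, 0.621 and 0.436 against 8.22, 4.00, 9.62 and 9.50 CPM in Cyp2b-null males. In WT females 2.40, 4.68, 1.69 and 2.42 CPM stood against 6.91, 6.06, 5.53 and 8.06 CPM, and in Cyp2b-null females 5.77, 3.40, 2.34 and 2.70 against 5.19, 9.21, 6.31 and 5.60 CPM. The CDAHFD-fed groups overlapped one another, whereas every ND-fed male lay below every ND-fed female. The log2 changes were 3.47 ± 0.47 (SE, adjusted p = 8.48e-06) and 3.27 ± 0.47 (adjusted p = 1.25e-05) in WT and Cyp2b-null males and 1.31 ± 0.32 (adjusted p = 0.00443) and 0.91 ± 0.30 (adjusted p = 0.0264) in WT and Cyp2b-null females. The call in Cyp2b-null females was lost without ND-fed replicate 2, 3 or 4 or CDAHFD-fed replicate 2 (adjusted p 0.0652 to 0.104).

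Tlr13, the mouse receptor for bacterial ribosomal RNA, also X-linked, rose in all 4 comparisons. CDAHFD-fed Cyp2b-null males had 19.1, 16.5, 29.7 and 31.3 CPM against 0.547, 1.12, 0.207 and 2.18 CPM on ND, and WT males 11.4, 27.6, 24.1 and 20.4 against 0.543, 0.813, 2.15 and 2.79 CPM. WT females had 8.92, 9.46, 11.5 and 14.8 CPM on CDAHFD and 0.800, 1.56, 2.03 and 2.42 CPM on ND, and Cyp2b-null females 14.0, 16.8, 10.3 and 10.1 and 3.34, 2.80, 1.95 and 2.70 CPM. No ND-fed library reached the lowest CDAHFD-fed one in any group. The log2 changes were 2.70 ± 0.31 (SE), 2.21 ± 0.28, 3.73 ± 0.41 and 4.67 ± 0.45 in WT females, Cyp2b-null females, WT males and Cyp2b-null males, or 4.62- to 25.4-fold, with edgeR's adjusted p between 6.53e-08 and 6.66e-06.

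Tlr8, a further receptor for RNA fragments, rose in both sexes with wider scatter. WT males went from 2.35, 0.813, 3.91 and 0.859 CPM to 6.34, 15.8, 9.79 and 11.5 CPM and Cyp2b-null males from 2.51, 1.12, 0.828 and 0.654 to 7.91, 10.9, 17.7 and 16.8 CPM, log2 changes of 2.36 ± 0.42 (SE, adjusted p = 0.000184) and 3.19 ± 0.44 (adjusted p = 7.76e-06). WT females went from 6.80, 3.12, 3.39 and 2.94 CPM to 7.58, 11.9, 8.40 and 10.2 CPM and Cyp2b-null females from 3.03, 3.20, 1.56 and 3.38 to 10.1, 9.04, 1.98 and 5.85 CPM, log2 changes of 1.18 ± 0.37 (adjusted p = 0.0241) and 1.17 ± 0.40 (adjusted p = 0.0295). Replicate 3 of the CDAHFD-fed Cyp2b-null females lay among the ND-fed libraries, and the other 3 lay above them. The call in WT females was lost without ND-fed replicate 2, 3 or 4 or CDAHFD-fed replicate 2 or 4 (adjusted p 0.0569 to 0.0898), and that in Cyp2b-null females without ND-fed replicate 1, 2 or 3 or CDAHFD-fed replicate 1 or 2 (0.0525 to 0.0921).

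Tlr9 was close to the detection floor on chow. The 4 ND-fed WT males had 2 reads of Tlr9 in all and the 4 CDAHFD-fed ones 42, a depth-corrected ratio of 20.2 with a counting interval of 5.27 to 173, and edgeR's adjusted p was 0.000398 (1.7e-05 without the low-count filter). Cyp2b-null males had 0.219, 0.224, 0.828 and 0 CPM on ND and 2.37, 2.26, 3.54 and 4.04 CPM on CDAHFD, a log2 change of 3.22 ± 0.59 (SE, adjusted p = 0.000174, and 5.4e-06 without the filter). In both sexes its ND-fed libraries alone would not have passed that filter. In females Tlr9 did not pass the low-count filter, and in a fit without the filter its log2 change was 0.57 ± 0.68 (adjusted p = 0.661) in WT and 0.57 ± 0.66 (adjusted p = 0.614) in Cyp2b-null mice. Female libraries ran from 0.338 to 1.60 CPM on ND and from 0.361 to 2.14 CPM on CDAHFD, so that a change of this size was not detectable at this depth.

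Myd88, the shared adaptor, passed the test in 1 of the 4 diet comparisons. It had 10.5, 19.0, 17.1 and 22.5 CPM on ND and 13.2, 21.9, 20.6 and 20.4 CPM on CDAHFD in WT males, and 15.0, 19.5, 13.3 and 14.8 against 16.4, 16.7, 21.5 and 21.8 CPM in Cyp2b-null males. Females went from 17.8, 11.3, 12.5 and 14.7 to 16.1, 19.9, 20.5 and 22.4 CPM in WT and from 12.7, 14.2, 12.5 and 18.6 to 24.1, 20.7, 27.6 and 21.0 CPM in Cyp2b-null mice. Only in Cyp2b-null females did the diets separate (log2 change 0.66 ± 0.18, SE; adjusted p = 0.00718). The changes of 0.46 ± 0.18 in WT females (adjusted p = 0.0666), 0.15 ± 0.20 in WT males (adjusted p = 0.626) and 0.29 ± 0.20 in Cyp2b-null males (adjusted p = 0.280) did not pass, and the intervals for males, -0.28 to 0.57 and -0.13 to 0.72, lie below 1 log2 unit. WT females passed without ND-fed replicate 1 (adjusted p = 0.0304) or CDAHFD-fed replicate 1 (0.0437), and without the 2 libraries absent from the study's heat maps (0.0437). With library size scaling WT females (0.00268) and Cyp2b-null males (0.0191) passed. Under that scaling the median log2 change of all genes was 0.317 and 0.365 in these groups. Myd88 shares sequence with Slc22a14 on its own strand and with Acaa1a on the opposite one in GENCODE vM21, and whether the counting used strand is not stated, so some of its reads may belong to them.

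Promoter sequences are given for 4 of these genes to set the letters of strongly changed receptors beside those of the adaptor. Each run covers 250 bases before to 50 bases after a RefSeq start on GRCm38.p6, 5′ to 3′ on the gene's strand, with motif matches in capitals. Tlr2 is at chr3:83841559-83841858 (minus strand), Tlr13 at chrX:106143025-106143324 (plus), Tlr8 at chrX:167264280-167264579 (minus) and Myd88 at chr9:119339969-119340268 (minus).
Tlr2: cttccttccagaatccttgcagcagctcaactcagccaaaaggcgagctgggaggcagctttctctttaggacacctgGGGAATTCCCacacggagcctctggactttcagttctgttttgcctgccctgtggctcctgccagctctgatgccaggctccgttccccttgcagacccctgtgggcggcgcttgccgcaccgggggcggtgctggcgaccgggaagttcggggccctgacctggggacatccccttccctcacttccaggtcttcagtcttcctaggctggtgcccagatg
Tlr13: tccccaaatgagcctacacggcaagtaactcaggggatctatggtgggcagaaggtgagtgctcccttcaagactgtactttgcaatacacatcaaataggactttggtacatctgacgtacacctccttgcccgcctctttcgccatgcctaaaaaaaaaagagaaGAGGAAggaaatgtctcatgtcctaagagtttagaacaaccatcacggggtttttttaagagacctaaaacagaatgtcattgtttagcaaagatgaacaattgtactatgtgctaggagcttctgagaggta
Tlr8: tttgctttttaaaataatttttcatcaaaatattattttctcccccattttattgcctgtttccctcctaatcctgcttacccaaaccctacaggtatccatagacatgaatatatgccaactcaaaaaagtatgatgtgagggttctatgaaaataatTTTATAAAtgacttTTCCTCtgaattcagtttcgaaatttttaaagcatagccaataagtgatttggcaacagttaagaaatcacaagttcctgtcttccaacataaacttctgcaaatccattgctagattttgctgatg
Myd88: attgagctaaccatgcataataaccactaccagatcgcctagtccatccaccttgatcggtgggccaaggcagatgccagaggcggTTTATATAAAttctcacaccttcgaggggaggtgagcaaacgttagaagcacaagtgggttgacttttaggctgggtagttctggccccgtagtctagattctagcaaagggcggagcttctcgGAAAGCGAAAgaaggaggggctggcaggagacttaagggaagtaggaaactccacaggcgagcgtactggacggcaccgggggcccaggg

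Promoters from RefSeq's table were searched for 6 of the 10 genes. Tlr4, Tlr7 and Ly96 matched no entry, and chromosome 18, which holds Cd14, was left out of the search. The motifs searched, on both strands, were NF-kB, IRF, the PU.1 core (GAGGAA), AP-1 (TGANTCA) and the TATA box (TATAAA). Tlr2 held an NF-kB match, GGGAATTCCC, from 172 to 163 bases before the start, a motif present in 1.2% of 32851 promoters of this length. The PU.1 core was found in 4 of the 7 promoters of these 6 genes, those of Tlr8, Tlr9 and Tlr13 and 1 of the 2 of Tlr1, and in 28.3% of all promoters. Myd88 held an IRF match 40 to 31 bases before the start (3.4% of all promoters) and TATA letters that overlap on both strands (13.6%), Tlr8 had such TATA letters 91 to 84 bases before the start, and Tlr9 an AP-1 match (7.8%). These are matches of letters in a window, not measured binding.

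By GENCODE vM21 on GRCm38, the gene bodies lie on several chromosomes, with Tlr2 at chr3:83836272-83841767, Tlr4 at chr4:66827584-66930284, Tlr1 at chr5:64924679-64933563, Ly96 at chr1:16688051-16709611, Tlr9 at chr9:106222598-106226883 and Myd88 at chr9:119335934-119341411. Tlr7 (chrX:167304929-167330558), Tlr8 (chrX:167242696-167264329) and Tlr13 (chrX:106143204-106160493) are X-linked.

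Tested directly in 1 fit of all 8 groups, the diet effect was larger in males than in females for 1 of the 10 genes in WT mice and for 3 in Cyp2b-null mice, where 0.670% and 2.09% of all genes tested were called larger in males. In WT mice that gene was Tlr4, whose log2 change exceeded that of females by 1.93 ± 0.41 (SE, adjusted p = 0.0124). In Cyp2b-null mice they were Cd14, by 2.21 ± 0.46 (adjusted p = 0.00600), Tlr13, by 2.48 ± 0.59 (adjusted p = 0.0159), and Tlr7, by 2.38 ± 0.58 (adjusted p = 0.0178). Tlr7 gave 2.18 ± 0.61 in WT mice (adjusted p = 0.0797) and passed there with DESeq2 (0.0244). Without ND-fed WT male replicate 3 or without CDAHFD-fed WT male replicate 1, 2 genes in place of 1 passed in WT mice. Without ND-fed Cyp2b-null female replicate 1 Tlr7 was lost in Cyp2b-null mice (adjusted p = 0.0557), and with the Cyp2b-null libraries of CDAHFD-fed female 3 and male 4 both left out, so were Tlr7 (0.0517) and Tlr13 (0.0513). For Tlr2 and Myd88 the differences between the sexes were 0.09 and -0.29 in WT and 0.70 and -0.34 in Cyp2b-null mice and did not pass.

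Levels of males and females on 1 diet were compared after the values had been seen. On ND, Tlr7 was lower in males than in females with a male-minus-female log2 difference of -1.87 ± 0.51 (SE) in WT mice (adjusted p = 0.0101) and -2.09 ± 0.49 in Cyp2b-null mice (adjusted p = 0.00343), with no overlap between the libraries of the sexes in either. All ND-fed males lay below all ND-fed females for 2 of the 10 genes in WT and 3 in Cyp2b-null mice. Of all genes, 9.44% and 10.37% did. Cd14 was lower in ND-fed Cyp2b-null males than females (male minus female -1.72 ± 0.41, adjusted p = 0.00379), and in WT mice the same difference was -0.65 ± 0.42 (adjusted p = 0.293). Tlr4 (male minus female -0.96, adjusted p = 0.0345) and Tlr9 (2 reads in the males and 12 in the females, a ratio of 0.114 with a counting interval of 0.0124 to 0.513, adjusted p = 0.0409) were lower in ND-fed WT males. Of the 12 female reads of Tlr9, 8 came from replicate 1. Without that library the log2 difference was -1.79 (edgeR's adjusted p = 0.313). With all libraries but no low-count filter, the adjusted p of Tlr9 was 0.0521. The percentages of all genes called lower in ND-fed males were 9.45% and 7.13% in WT and Cyp2b-null mice, and 3 and 2 of the 10 genes were.

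On CDAHFD the sign was the other way for the genes that passed. Tlr4 and Tlr13 were higher in WT males than in WT females (male minus female 0.98 ± 0.26, SE, adjusted p = 0.0137, and 0.95 ± 0.29, adjusted p = 0.0317), and Tlr13, Tlr8 and Tlr9 were higher in Cyp2b-null males (0.98 ± 0.28, 1.07 ± 0.36 and 1.39 ± 0.48, adjusted p 0.0154, 0.0375 and 0.0400). Among males, Tlr9 passed the low-count filter only with CDAHFD-fed libraries, so its adjusted p here is a description. The call of Tlr9 was lost in edgeR's fit without the filter (adjusted p = 0.0589) and with a replicate block (0.0528). Of all genes, 5.91% and 9.06% were called higher in CDAHFD-fed males. Tlr7 on CDAHFD differed by 0.31 (95% interval -0.34 to 0.97) in WT and by 0.29 (-0.35 to 0.94) in Cyp2b-null mice. Of these calls, Tlr7 on ND in both genotypes and Cd14 in ND-fed Cyp2b-null mice held without each library in turn, and each of the others was lost without at least 1 library. Female and male libraries were deposited in separate tables, so sex and table cannot be told apart. The summed resident macrophage markers were 442 to 770 CPM in ND-fed females and 163 to 405 CPM in ND-fed males, and their part in these differences was not tested.

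Between the genotypes, none of the 10 genes passed the test. Cyp2b-null against WT, 0 genes were called in ND-fed females, CDAHFD-fed females, ND-fed males or CDAHFD-fed males by edgeR's quasi-likelihood test, and 0 by DESeq2, where edgeR called 0.0756%, 0.0227%, 0.0371% and 0.0297% of all genes in these comparisons. At an unadjusted p under 0.05 the counts were 0, 1, 0 and 1. The first of these was Ly96 in CDAHFD-fed females, at 3.81 ± 0.964 CPM (SD, n = 4) in Cyp2b-null against 5.87 ± 1.33 CPM in WT mice, with a log2 change of -0.64 ± 0.29 (SE, edgeR's adjusted p = 0.826). The other was Cd14 in CDAHFD-fed males, at 32.7 ± 2.53 CPM without the enzymes and 22.8 ± 6.11 CPM with them, a log2 change of 0.51 ± 0.17 (SE, edgeR's adjusted p = 1). Of the 4 Cyp2b-null males, 3 had more Cd14 than all WT males, and WT replicate 3 stood above Cyp2b-null replicate 4.

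The intervals of the genotype effect differed in width. For Tlr2 on CDAHFD the 95% interval of the log2 change was -0.36 to 0.37 in females and -0.31 to 0.91 in males, and for Myd88 -0.11 to 0.59 and -0.42 to 0.42. For Tlr4 it was -0.24 to 0.83 and -0.71 to 0.32, and for Tlr7 -0.58 to 0.55 and -0.75 to 0.69. On ND, where counts were low, intervals were wider, as for Tlr13 in males (-2.01 to 0.55) and Tlr1 in females (-1.74 to 0.72). The libraries of the genotypes did not overlap for Tlr2 in ND-fed females (2.73, 2.80, 2.73 and 2.87 CPM in Cyp2b-null and 2.40, 2.73, 2.03 and 1.21 CPM in WT mice, adjusted p = 0.909; the groups are parted by less than the rounding), where 1.88% of all genes lay above without overlap, and for Tlr9 in CDAHFD-fed males (2.37, 2.26, 3.54 and 4.04 against 0.560, 2.25, 2.07 and 1.75 CPM, adjusted p = 1), where 1.14% did.

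The interaction of diet and genotype was called for 0 of the 10 genes in either sex (0 and 1 at an unadjusted p under 0.05; 0 by DESeq2), where 0% and 0.00743% of all genes were. The single gene was Cd14 in males, with an interaction of 0.89 ± 0.39 on the log2 scale (SE, edgeR's adjusted p = 0.753), larger in Cyp2b-null mice. A genotype effect on CDAHFD that differed between the sexes was called for 0 of the 10 genes as well (0 at an unadjusted p under 0.05; 0 by DESeq2), against 0.00713% of all genes.

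**Figure D3:**
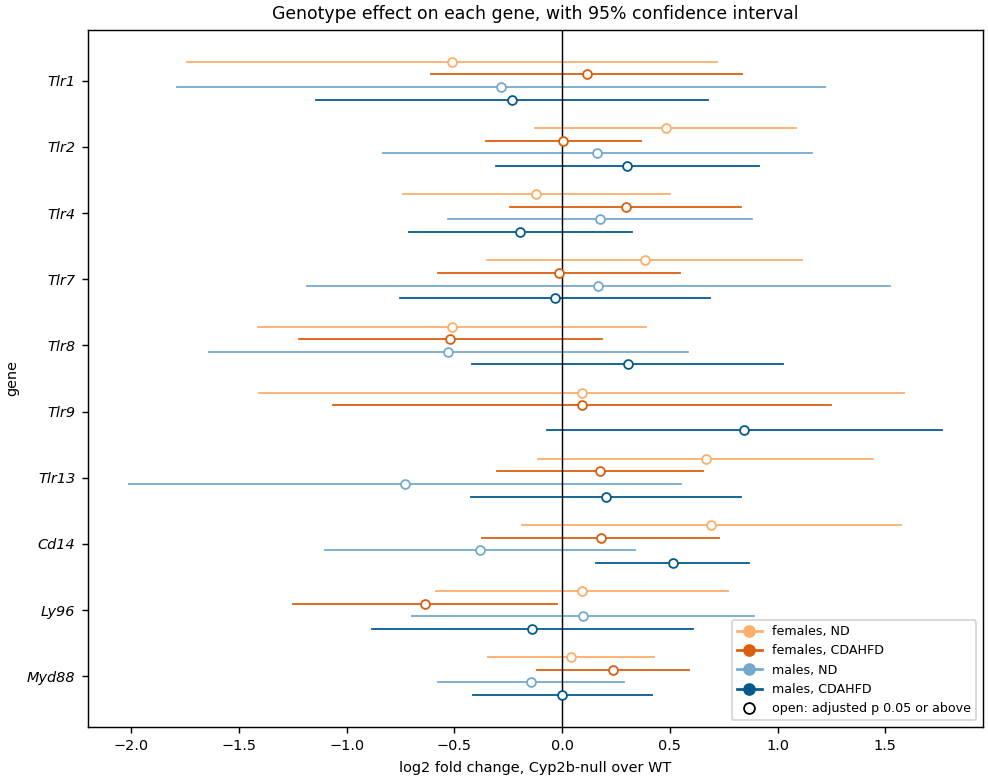
Log2 fold change of Cyp2b-null over WT (x axis) for each of the 10 genes (y axis) in females and males on each diet, with the 95% confidence interval as a line; every point is open because none passed an adjusted p of 0.05. The narrowest intervals are those of Myd88 in CDAHFD-fed females and of Cd14 in CDAHFD-fed males, and Tlr9 in ND-fed males is left out because its WT libraries held 2 reads in all.

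The other Toll-like receptors of the mouse did not move as a block. Tlr12, an endosomal receptor for protozoan profilin, rose in WT females (0.773 ± 0.572 to 4.56 ± 0.513 CPM, mean ± SD, n = 4, adjusted p = 0.000159), Cyp2b-null females (adjusted p = 0.000439) and WT males (adjusted p = 0.00557), and had an adjusted p of 0.0554 in Cyp2b-null males. Tlr6, the further partner of TLR2, rose in WT females, WT males and Cyp2b-null males (log2 1.78, 2.21 and 2.84), with 1.31 and an adjusted p of 0.0579 in Cyp2b-null females. Each ND-fed group held only 10 to 14 reads of Tlr6 in all, so it could pass the low-count filter only with CDAHFD-fed libraries. The calls of Tlr6 are therefore a description, and in WT females the diets overlapped. Tlr3, the receptor for double-stranded RNA that signals without MyD88, rose in WT females (log2 0.87, adjusted p = 0.0222) and gave 0.64, 0.73 and 0.62 in Cyp2b-null females, WT males and Cyp2b-null males (adjusted p 0.0774, 0.0759 and 0.106).

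Tlr5, the flagellin receptor, went the opposite way in males. WT males had 11.2, 12.2, 6.87 and 7.51 CPM on ND and 5.04, 5.94, 3.92 and 5.07 CPM on CDAHFD, and Cyp2b-null males 9.08, 15.9, 14.1 and 13.1 and 6.01, 4.31, 3.54 and 7.48 CPM. The diets did not overlap, and Tlr5 fell by 0.94 and 1.32 on the log2 scale (adjusted p = 0.00970 and 0.000347). In WT females 1.80, 3.51, 4.41 and 4.50 CPM on ND stood beside 6.69, 4.85, 2.66 and 5.64 CPM on CDAHFD (adjusted p = 0.372), and in Cyp2b-null females the log2 change was 0.07 (adjusted p = 0.904). Direct tests of the sex difference gave -1.41 in WT (adjusted p = 0.174) and -1.36 in Cyp2b-null mice (adjusted p = 0.0749). Tlr11, which failed the low-count filter, was at 0 in all 4 ND-fed Cyp2b-null females and had at most 1.37 CPM in any other library. In a fit without the filter it was called in Cyp2b-null females (adjusted p = 0.0177), with 0 reads on ND and 15 on CDAHFD, 11 of them in replicate 4, and had adjusted p of 0.978, 0.518 and 0.477 in WT females, WT males and Cyp2b-null males.

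Of the co-receptors and ligand carriers other than Cd14 and Ly96 (Lbp, Cd36, Cd180, Ly86, Clec7a and Hmgb1), 4 of 6 rose in WT females, Cyp2b-null females and WT males, 5 in Cyp2b-null males, and 0 fell; this and the following counts stand beside the shares of all genes called higher and lower for the diet, given with the 10 genes. Clec7a, the beta-glucan receptor Dectin-1, rose from 6.94 ± 0.776 to 87.4 ± 5.82 CPM in WT females and from 4.37 ± 2.07 to 158 ± 57.3 CPM in WT males (mean ± SD, n = 4; log2 3.67 and 5.14). Cd180 and its partner Ly86, which form a TLR4-like pair, rose in all 4 comparisons, Cd180 by 1.67 to 3.76 and Ly86 by 1.15 to 2.50 on the log2 scale. Cd36, a fatty acid and lipoprotein receptor that works with TLR2, rose from 42.7 ± 10.3 to 290 ± 74.6 CPM in WT males.

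Genes that ferry and process the endosomal receptors were mixed. Of 9 tested, 5 rose and 2 fell in WT females, and 6 rose and 1 fell in each of the other 3 groups. Ctss, a lysosomal protease that cuts these receptors into their active form, rose from 50.5 ± 10.3 to 215 ± 29.4 CPM in WT females and from 15.3 ± 7.17 to 242 ± 69.0 CPM in WT males (log2 2.10 and 3.96). Slc15a3, an endolysosomal peptide transporter, rose by 1.49 to 2.96 on the log2 scale. Hsp90b1, the chaperone gp96 that folds most Toll-like receptors, fell in all 4 comparisons, from 1219 ± 267 to 802 ± 146 CPM in WT females and from 1281 ± 306 to 716 ± 139 CPM in Cyp2b-null males. Slc15a4 fell in WT females only (log2 -0.84, edgeR's adjusted p = 0.00649). It gave -0.28, 0.32 and 0.17 in Cyp2b-null females, WT males and Cyp2b-null males (adjusted p 0.337, 0.155 and 0.477).

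Downstream of the receptors, of 16 other adaptors and proximal kinases tested, 5 rose and 2 fell in WT females, 5 and 4 in Cyp2b-null females, 6 and 1 in WT males, and 7 and 3 in Cyp2b-null males. Tirap, the bridging adaptor that carries MyD88 to TLR2 and TLR4, fell in all 4 comparisons without overlap, from 28.3 ± 4.10 to 18.3 ± 3.88 CPM in WT females (log2 -0.64, adjusted p = 0.0169) and from 32.6 ± 1.75 to 19.9 ± 1.495 CPM in WT males (log2 -0.71, adjusted p = 0.000235). Ticam2, the TRAM adaptor used by TLR4, rose in Cyp2b-null females, WT males and Cyp2b-null males (adjusted p = 0.0966 in WT females). Its ND-fed group means were at most 0.584 CPM, so it could pass the low-count filter only with CDAHFD-fed libraries. The adjusted p of Ticam2 and its part in the counts above are therefore a description. Btk, a kinase of TLR and B cell signalling, rose in all but Cyp2b-null females (adjusted p = 0.142). Tab2, a scaffold of the kinase TAK1, fell in females and in Cyp2b-null males, with an adjusted p of 0.0502 in WT males.

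Among 12 NF-kB and IRF genes, 6 rose and 0 fell in WT females, 6 and 1 in Cyp2b-null females, 7 and 2 in WT males, and 8 and 1 in Cyp2b-null males. Nfkb2 and Relb, the pair of the non-canonical arm, rose throughout, with 1.73 to 2.09 for Nfkb2 and up to 3.86 for Relb on the log2 scale. Chuk, the kinase IKK-alpha, fell in Cyp2b-null females and in both groups of males. Irf3 fell in WT males only (log2 -0.40, edgeR's adjusted p = 0.0176), with adjusted p of 0.208, 0.844 and 0.111 in WT females, Cyp2b-null females and Cyp2b-null males. Negative regulators rose in 2 of 9 and 2 of 9 in WT and Cyp2b-null females, with 0 and 2 falling, and in 5 of 10 and 4 of 10 in WT and Cyp2b-null males, with 0 falling. Tnip3 was counted in males alone, where it passed the low-count filter only with CDAHFD-fed libraries and was called in both genotypes; in females it failed the filter and had an adjusted p of 0.0145 (WT) and 1.31e-05 (Cyp2b-null) without it. Tnfaip3, which codes for the brake A20, rose in all 4 comparisons, from 3.97 ± 1.52 to 12.7 ± 2.61 CPM in WT females and from 1.31 ± 0.378 to 12.5 ± 2.39 CPM in WT males. Sigirr rose in WT males only (log2 0.49, edgeR's adjusted p = 0.0303), with adjusted p of 0.475, 0.797 and 0.104 in WT females, Cyp2b-null females and Cyp2b-null males. Of 10 inflammatory target genes tested out of 18, 8 rose in WT females, 8 in Cyp2b-null females, 10 in WT males and 9 in Cyp2b-null males, and 0 fell. Ccl3 and Ccl4 among them had ND-fed group means of at most 0.397 CPM. Such genes could pass the low-count filter only with CDAHFD-fed libraries, so these counts are a description. The genes that rose included the chemokine Ccl5 in all 4 comparisons (log2 1.52 to 2.71), whereas the alarmin Il1a rose in WT males (log2 1.35, adjusted p = 0.00746) and gave 0.63, 0.42 and 0.46 in WT females, Cyp2b-null females and Cyp2b-null males (adjusted p 0.165, 0.316 and 0.317).

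**Figure D4:**
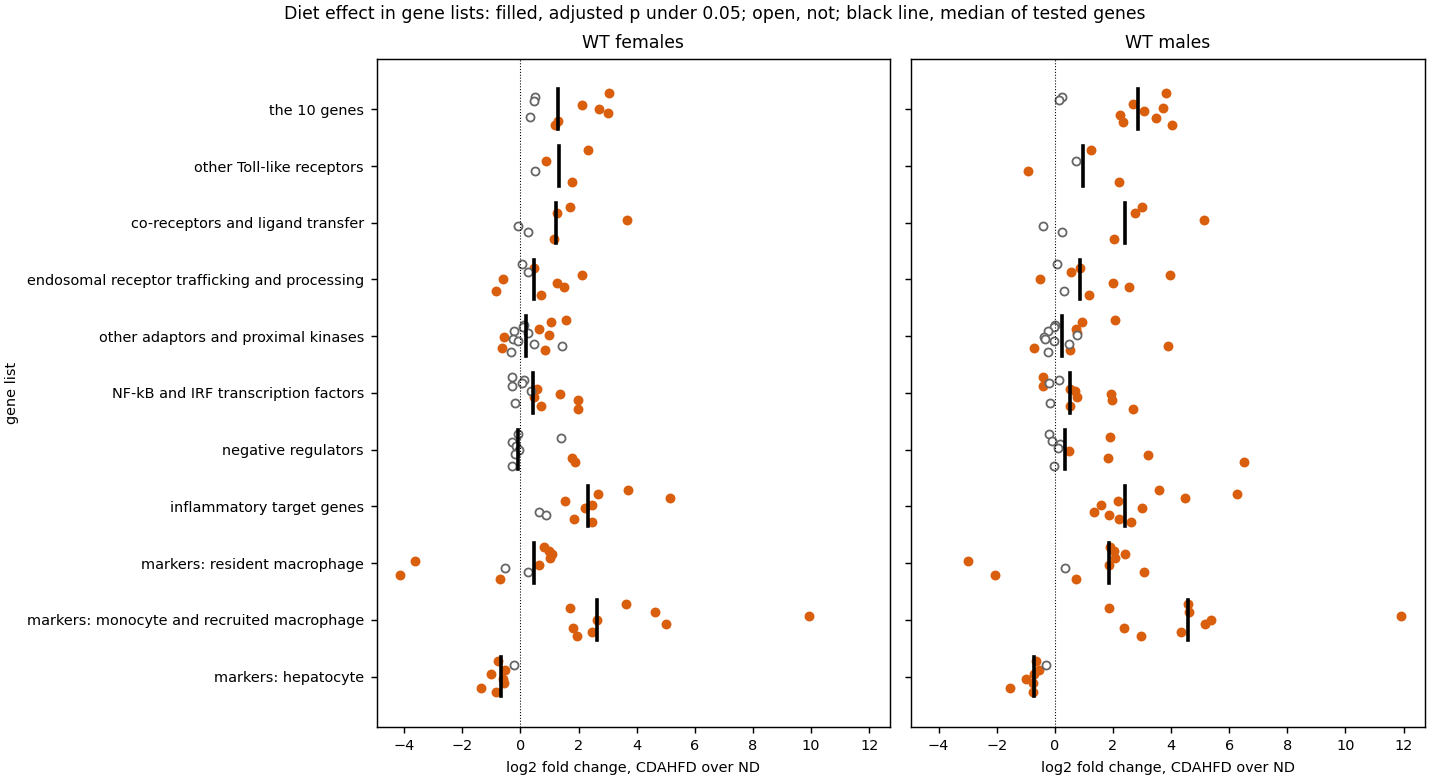
Log2 fold change of CDAHFD over ND (x axis) for the genes tested in each list (y axis) in WT females and WT males; filled points passed an adjusted p of 0.05, open points did not, and the black line is the list's median. The medians of the 10 genes, 1.31 and 2.88, lie right of those of the adaptors and kinases, and fitted values of genes with almost no reads on ND, at the far right, depend on the prior count.

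Across the 32 libraries, which share diet, sex and table as sources of spread, the gene outside the 10 whose log2 CPM ran most like each member's was taken by Pearson's r as a description. It was Pla2g7 for Tlr2 (r = 0.949, and 0.688 with group means removed), Hmox1 for Tlr7 (r = 0.947, and 0.745 with group means removed), Flna for Tlr13 (r = 0.958, and 0.581 with group means removed) and Col5a1 for Cd14 (r = 0.960, and 0.633 with group means removed). For Tlr1, Tlr4, Tlr8 and Tlr9 the closest genes were Plekhm2, Trim35, Syk and Emp2, with r of 0.870, 0.913, 0.920 and 0.864. Myd88 and Ly96 had weaker closest matches, Steap3 (r = 0.754) and B4galt3 (r = 0.741).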

How the data were processed

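RNA from 32 mouse livers was sequenced by the authors as paired reads on a NovaSeq. The authors trimmed reads with Trimmomatic, aligned them to GRCm38.p6 with GSNAP and counted reads per gene with Subread featureCounts; tool versions and the strand and multimapping settings are not given in the sources used here. They deposited raw counts, 1 table for each sex. Columns were tied to samples by their names.

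From the deposited counts, edgeR 4.0.16 (R 4.3.3) filtered genes (filterByExpr, minimum count 10, minimum total 15), normalised by TMM and fitted the 4 groups of each sex with the quasi-likelihood test, leaving 13226 genes tested in females and 13460 in males; 14020 were tested in a joint fit of 8 groups for differences between the sexes. The second step of the published design, a Student test per gene, was replaced by edgeR contrasts. Adjustment was by Benjamini and Hochberg's method across every gene in a fit, and a gene was called when the adjusted p was under 0.05. CPM are TMM-normalised per table. Tlr9 failed the filter in females and was tested without it. On simulated data 170 of 200 changed genes (85%) were recovered for the diet effect in WT females among 13163 genes, and 165 (82.5%) in WT males among 13278; of those changed by 1 log2 unit, 41 of 66 and 40 of 68 were recovered, with 0 of wrong sign and 7 and 11 false calls in all. The changed genes were drawn from all that passed the filter and were far fewer than those called for the diet in the data. These rates therefore do not describe the power for the thinly covered 10 genes.

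The 10 genes and the gene lists were chosen with earlier results of these data known. Every member was named. Of the pathway lists, the other Toll-like receptors were named, and per list up to 2 genes with the largest and 2 with the smallest log2 change among those called for the diet in WT mice of either sex. Alternatives were DESeq2 1.42.0, other normalisations, filters and tests, a replicate block, and leaving out libraries; the comparisons of males with females on 1 diet were added after seeing the data. Same-numbered libraries did not pair: 5 of 48 pairs had a correlation over 0.1, and 0 comparisons had every pair over it. Library totals were 2906411 to 10166959 counts.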

Additional observations from a re-analysis of the deposited data

Results flagged for a closer look

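Within the 80 sets of 4 libraries (10 genes in 8 groups), 6 held a library far from the other 3, where chance alone gives about 1 in 20. Tlr1 was 9.60 CPM in CDAHFD-fed Cyp2b-null female replicate 1, with the others at 6.41 to 6.49 CPM, and 0 CPM in ND-fed Cyp2b-null male replicate 4, with the others at 0.895 to 1.04 CPM. In ND-fed WT female replicate 1, Tlr8 was 6.80 CPM (others 2.94 to 3.39 CPM) and Tlr9 was 1.60 CPM (others 0.339 to 0.390 CPM). Ly96 was 2.60 CPM in ND-fed WT female replicate 4, with the others at 4.75 to 5.07 CPM. Myd88 was 13.2 CPM in CDAHFD-fed WT male replicate 1, with the others at 20.4 to 21.9 CPM.

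The diet effect differed between the sexes, by edgeR's test of the difference, for 4 of the values reported. The log2 change was larger in males by 1.93 for Tlr4 in WT mice, and by 2.21 for Cd14, 2.48 for Tlr13 and 2.38 for Tlr7 in Cyp2b-null mice.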

How the results depend on the processing

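Counts of the 10 genes passing the test for the diet were 6, 8, 8 and 8 in WT females, Cyp2b-null females, WT males and Cyp2b-null males, and the fit with a replicate block gave 6, 8, 8 and 8; leaving out 1 library gave 5 to 7, 5 to 8, 8 and 8, with 5 in Cyp2b-null females without ND-fed replicate 2 or 3 or CDAHFD-fed replicate 2. For the sex difference of the diet effect, WT mice (1 gene) gave 2 with DESeq2, 2 with no low-count filter, 3 with the likelihood ratio test and 1 to 2 without 1 library. Cyp2b-null mice (3 genes) gave 5 with the likelihood ratio test, 1 without the 2 libraries absent from the study's heat maps and 2 to 4 without 1 library. The replicate block gave 1 and 3 there. For males against females on ND in WT mice (3 genes), no low-count filter gave 1, a fit of only the groups compared gave 0, and leaving out 1 library gave 1 to 2. On CDAHFD in WT mice (2 genes), scaling by library size gave 1 and leaving out 1 library 0 to 2. On CDAHFD in Cyp2b-null mice (3 genes), scaling by library size gave 1, only the groups compared 1, the fit without the 2 libraries absent from the heat maps 0, and leaving out 1 library 0 to 3. Tlr9 was also lost there with no low-count filter (edgeR's adjusted p = 0.0589) and with a replicate block (0.0528). The cause of these moves was not tested.

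Among the diet effects, signs turned for 3 uncalled values; over the other comparisons, 122 of 2247 values of uncalled genes (comparisons by alternative) turned sign. Ly96 in Cyp2b-null females was 0.0215 with library size scaling and -0.42 to 0.0369 without 1 library. Myd88 in WT males was -0.0289 to 0.30 without 1 library. Ly96 in Cyp2b-null males was 0.0055 with DESeq2, 0.0093 with RLE, 0.37 with library size scaling, 0.0029 with the likelihood ratio test, 0.0189 with a replicate block, 0.0381 with only the groups compared, and -0.31 to 0.29 without 1 library. With library size scaling the median of all genes for the diet was 0.32, 0.28, 0.37 and 0.36 in the 4 groups, against -0.00, 0.03, -0.02 and -0.01 with TMM. Genotype and interaction counts were 0 in all fits run. Low counts limit Tlr9 and, on ND, Tlr1, Tlr7 and Tlr13.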
